A study of Mus musculus with 18 samples.

Results

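Complement is a cascade of plasma proteins and cell-surface receptors that tags particles and immune complexes (IC) for uptake and recruits leukocytes. The classical pathway starts when C1q, assembled from the chains encoded by *C1qa*, *C1qb* and *C1qc*, binds antibody in an IC. C4 and C2 are then cleaved, and their products cleave C3. The alternative pathway amplifies C3 cleavage through factor B (*Cfb*) and is stabilised by properdin (*Cfp*). The small fragments C3a and C5a signal through *C3ar1* and *C5ar1*, receptors of myeloid cells. Tissue macrophages are a known local source of C1q, outside the liver that makes most other components.

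These 9 genes, *C1qa*, *C1qb*, *C1qc*, *C4b*, *C3*, *Cfb*, *Cfp*, *C3ar1* and *C5ar1*, were chosen by name and read from all 18 libraries of the series, whose count tables list 24421 gene symbols. All 9 had reads in each of the 18 libraries and passed the filter on low counts, which kept 10550 genes. The libraries hold bulk RNA of macrophages sorted from the synovium, the tissue that lines the joint, of adult wild-type mice, C57BL/6 in the labels and of C57BL/6J background in the study's methods. LYVE1+CX3CR1+ (here LYVE1+), MHCII+CD11c- and MHCII+CD11c+ macrophages were taken from mice without IC or 8 h after intravenous injection of IC made of ovalbumin and rabbit antibody to it, with 3 libraries in each of the 6 groups. Each library stood for 3 mice, so a p value measures the spread between such libraries. Levels are given as CPM, the counts of a gene relative to its library total, scaled by the trimmed mean of M values (TMM), and fold changes come from the quasi-likelihood test of edgeR with Benjamini-Hochberg adjustment over 10550 genes and a threshold of 0.05. In bulk samples, fewer cells of a type and less RNA per cell cannot be told apart.

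The 18 libraries held 245903 to 2172358 counts (median 1526180). The MHCII+CD11c- libraries with IC were the smallest, with 381217 and 245903 counts in replicates 1 and 2, so that 3 counts correspond to 11.3 CPM in the smaller of them. *Csf1r*, the receptor for the macrophage growth factor, had a mean of at least 1484 CPM in every group, and *Lyve1* was highest in LYVE1+ macrophages, at 2372 CPM without IC, against 796 and 378 in the MHCII+CD11c- and MHCII+CD11c+ cells. *Itgax*, which encodes CD11c, averaged 1.71, 6.02 and 269 CPM in the same order. Markers of other cells were also present, mainly in the MHCII+ libraries. The summed CPM of the 12 neutrophil genes measured, of 13 listed, was 13.2 to 17.2 in LYVE1+ libraries without IC, 776 to 1882 in MHCII+CD11c- and 20.4 to 715 in MHCII+CD11c+ libraries. With IC it was 19.2 to 170, 1536 to 4257 and 1047 to 2360. In LYVE1+ libraries without IC, *S100a8*, *Ngp*, *Ltf*, *Camp*, *Stfa2l1*, *Mpo* and *Elane* were all at 0, whereas *S100a9* averaged 279 CPM in MHCII+CD11c- libraries without IC and 849 with IC. The sum of 5 B-cell markers was at most 2.11 CPM in LYVE1+ libraries, 204 to 354 in MHCII+CD11c- and 62.5 to 94.5 in MHCII+CD11c+ libraries. The sum of 12 fibroblast markers was 870 to 8532 CPM over all libraries. Most of it was *Fn1*, which macrophages also express, with group means of 3464 to 6592 CPM, whereas *Col1a1* had group means of 3.26 to 13.5 and *Pdgfra* of at most 1.86 CPM.

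The 3 genes of C1q lie side by side on the minus strand of chromosome 4 in mm10, *C1qb* at chr4:136880126-136886200, *C1qc* at chr4:136889801-136892936 and *C1qa* at chr4:136895916-136898844. *C4b* (chr17:34728139-34743902) and *Cfb* (chr17:34856374-34862514) lie in the class III region of the major histocompatibility complex, and *C3* (chr17:57203967-57228136) lies elsewhere on chromosome 17. *Cfp* is X-linked, at chrX:20925454-20931555, and the receptor genes lie at chr6:122847140-122856157 (*C3ar1*) and chr7:16246743-16259540 (*C5ar1*). All are on the minus strand. RefSeq promoters of 300 bases, from 250 before to 50 after the start site, were at hand for 6 of the 9 genes. The 4 shown come from the 2 groups of genes that moved in opposite directions between subsets. Capitals mark matches on either strand to GAGGAA (the core bound by PU.1, a macrophage lineage factor), TGCTGA (a half-site of MAF factors) or TTGCNNAA (C/EBP), and no matches overlapped.
C1qb promoter, chr4:136886151-136886450, minus strand: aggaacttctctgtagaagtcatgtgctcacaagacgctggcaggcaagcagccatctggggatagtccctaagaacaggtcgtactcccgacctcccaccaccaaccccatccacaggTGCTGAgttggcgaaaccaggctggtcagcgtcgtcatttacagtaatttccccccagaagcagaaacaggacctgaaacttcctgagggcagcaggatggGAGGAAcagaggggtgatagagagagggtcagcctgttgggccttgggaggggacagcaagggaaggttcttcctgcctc
C1qc promoter, chr4:136892865-136893164, minus strand: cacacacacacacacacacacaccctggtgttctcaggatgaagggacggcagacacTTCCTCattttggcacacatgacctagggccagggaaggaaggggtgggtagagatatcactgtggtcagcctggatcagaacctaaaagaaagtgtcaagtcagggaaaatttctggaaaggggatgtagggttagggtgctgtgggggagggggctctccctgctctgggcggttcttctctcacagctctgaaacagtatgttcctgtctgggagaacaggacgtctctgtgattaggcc
C3 promoter, chr17:57228087-57228386, minus strand: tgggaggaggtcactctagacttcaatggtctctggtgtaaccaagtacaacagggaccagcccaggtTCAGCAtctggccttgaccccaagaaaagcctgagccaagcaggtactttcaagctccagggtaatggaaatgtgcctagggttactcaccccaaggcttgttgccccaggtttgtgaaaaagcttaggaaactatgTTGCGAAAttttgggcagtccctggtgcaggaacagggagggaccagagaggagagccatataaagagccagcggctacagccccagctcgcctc
Cfp promoter, chrX:20931506-20931805, minus strand: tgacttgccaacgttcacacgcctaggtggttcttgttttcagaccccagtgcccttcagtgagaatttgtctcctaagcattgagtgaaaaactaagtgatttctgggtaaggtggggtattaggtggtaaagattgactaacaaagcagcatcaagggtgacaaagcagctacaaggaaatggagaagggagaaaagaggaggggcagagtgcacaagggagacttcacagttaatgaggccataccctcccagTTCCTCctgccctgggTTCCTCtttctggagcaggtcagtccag
*C1qb* held a TGCTGA at -131 and a GAGGAA at -30, and *C1qc* held GAGGAA on the opposite strand at -193. *C3* held the TTGCNNAA letters at -45 and TGCTGA on the opposite strand at -182, and *Cfp* held GAGGAA on the opposite strand at +7 and +23. GAGGAA was found in 28.3% of 32851 mouse promoters of this length, TGCTGA in 19.5% and TTGCNNAA in 10.8%.

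Without IC, the 9 genes fell into 2 patterns. C1q and both receptors were highest in LYVE1+ macrophages, lower in MHCII+CD11c- and lowest in MHCII+CD11c+ cells, whereas *C3*, *C4b*, *Cfb* and *Cfp* were low in LYVE1+ and higher in both MHCII+ subsets. Between LYVE1+ and MHCII+CD11c+ macrophages, 5 genes were higher and 4 lower in LYVE1+, all 9 past the threshold, where 21.8% of all genes tested passed. Between LYVE1+ and MHCII+CD11c- macrophages 4 were higher and 4 lower, against 11.4% of all genes. Between the MHCII+ subsets, 5 were lower in CD11c+ cells and none was higher, against 3.49% of all genes. The genes were chosen with earlier results known, so these shares describe the list.

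**Figure D1:**
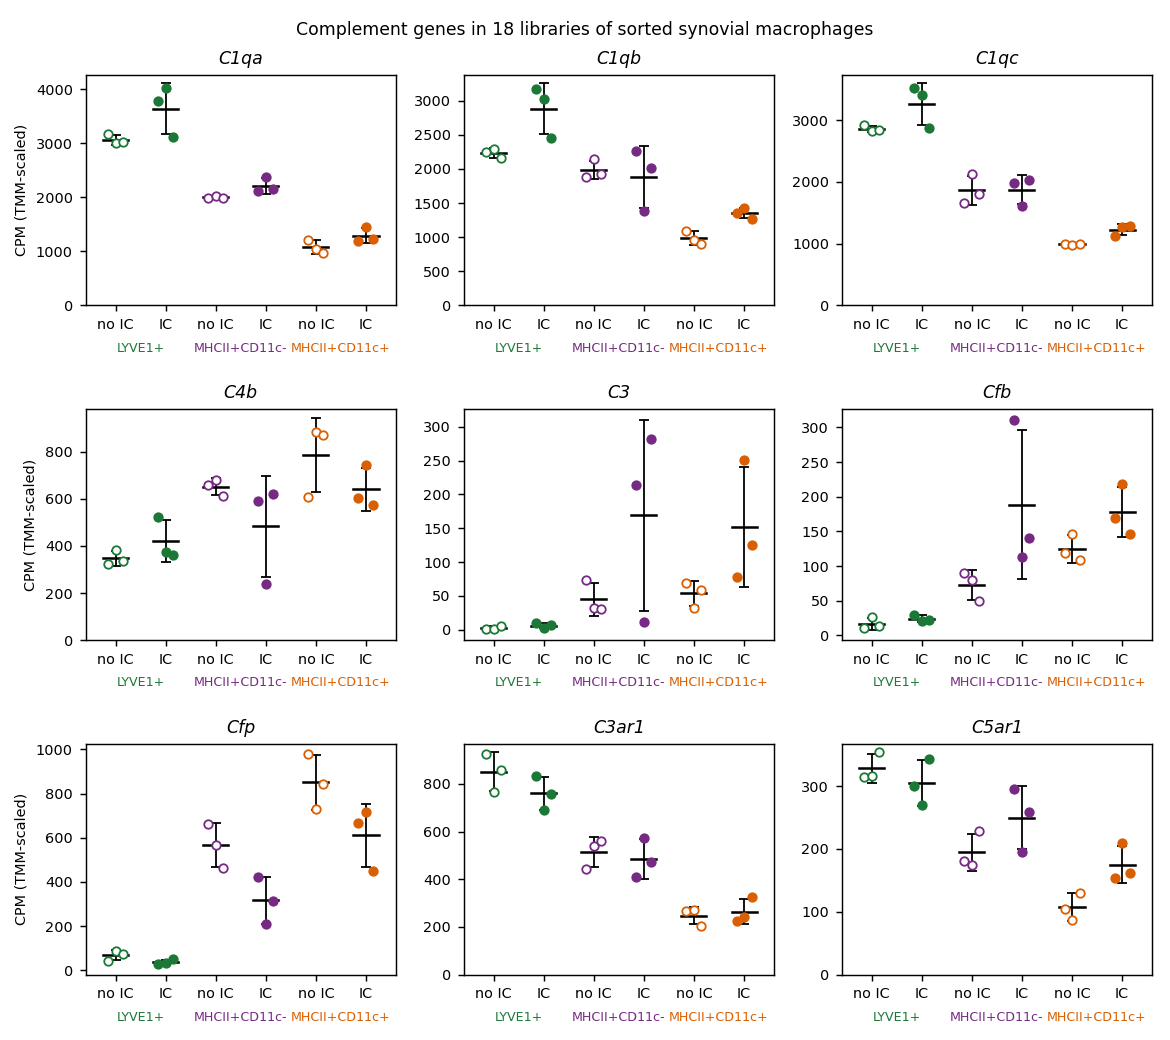
Level of 9 complement genes (y axis, TMM-scaled CPM, linear scale) in the 6 groups (x axis), with open points for libraries of mice without IC, filled points for libraries 8 h after IC, and black bars for the mean ± SD of 3 libraries. C1q and receptor genes step down from LYVE1+ to MHCII+CD11c+ macrophages, and *C3*, *Cfb* and *Cfp* lie near 0 in LYVE1+ macrophages relative to their MHCII+ levels.

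Per kilobase of transcript, the C1q genes had the highest mean levels of the 9 in every group. *C1qa*, which encodes the A chain, measured 3180, 3000 and 3018 CPM in LYVE1+ libraries without IC, 1984, 2027 and 1988 in MHCII+CD11c- libraries, and 1221, 1053 and 969 in MHCII+CD11c+ libraries. The 3 groups did not overlap. The LYVE1+ level was 2.84-fold the MHCII+CD11c+ level (log2 difference 1.50, SE 0.14, adjusted p = 1.1e-08) and 1.53-fold the MHCII+CD11c- level (0.62, SE 0.14, adjusted p = 0.0038). Per kilobase of transcript it averaged 2948 ± 95.5 CPM in LYVE1+ cells, against 2053 ± 63.6 for *C1qb* and 2378 ± 40.4 for *C1qc* (SD, n = 3).

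*C1qc*, the C chain, gave 2915, 2821 and 2848 CPM in LYVE1+ libraries, 1663, 2122 and 1800 in MHCII+CD11c- and 993, 982 and 994 in MHCII+CD11c+ libraries. Its log2 differences were 1.53 from LYVE1+ to MHCII+CD11c+ (SE 0.14, adjusted p = 8.1e-09) and 0.62 to MHCII+CD11c- (SE 0.14, adjusted p = 0.0037). *C1qb*, the B chain, gave 2249, 2293 and 2157 CPM in LYVE1+ libraries against 1888, 2139 and 1921 in MHCII+CD11c- libraries. Here the levels did not overlap, but the difference of 0.17 on the log2 scale (95% interval -0.15 to 0.50, adjusted p = 0.58) did not pass. Its step down to the MHCII+CD11c+ libraries, at 1094, 954 and 895 CPM, did (LYVE1+ higher by 1.19, SE 0.16, adjusted p = 3.0e-06).

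Without IC, the proportion of the chains, divided by transcript length, differed between subsets, with no test run on it. In LYVE1+ libraries without IC, *C1qa*, *C1qb* and *C1qc* made up 39.9%, 27.8% and 32.2% of the per-length C1q total, in MHCII+CD11c- libraries 36.4%, 34.4% and 29.2%, and in MHCII+CD11c+ libraries 37.5%, 32.6% and 29.9%. The *C1qb* share was 27.3% to 28.7% in LYVE1+, 34.1% to 34.6% in MHCII+CD11c- and 31.9% to 33.5% in MHCII+CD11c+ libraries, with no overlap between subsets. The *C1qa* share was 39.3% to 40.5% in LYVE1+ and at most 39.1% in MHCII+ libraries. The shares of a library are tied, as a lower share of 1 chain raises the others. With IC the *C1qb* share was 30.8%, 29.3% and 29.5% in LYVE1+ and 36.2%, 26.0% and 33.0% in MHCII+CD11c- libraries, which overlapped. It was 37.3%, 34.8% and 34.2% in MHCII+CD11c+ libraries with IC. Without IC, the C1q genes together summed to 8160 ± 166 CPM in LYVE1+, 5844 ± 395 in MHCII+CD11c- and 3052 ± 232 in MHCII+CD11c+ libraries. These were 83.5%, 74.1% and 58.4% of the summed CPM of the 9 genes.

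The receptors followed C1q. *C3ar1*, the C3a receptor, measured 926, 764 and 859 CPM in LYVE1+ libraries, 442, 538 and 562 in MHCII+CD11c- libraries and 265, 270 and 205 in MHCII+CD11c+ libraries without IC. It was 3.44-fold higher in LYVE1+ than in MHCII+CD11c+ cells (log2 1.78, SE 0.17, adjusted p = 1.6e-08) and 1.65-fold higher than in MHCII+CD11c- cells (0.72, SE 0.17, adjusted p = 0.0047). *C5ar1*, the C5a receptor, measured 314, 316 and 354 CPM in LYVE1+ libraries, 181, 175 and 229 in MHCII+CD11c- and 105, 87.4 and 131 in MHCII+CD11c+ libraries. No group overlapped another for either receptor. For *C5ar1*, LYVE1+ exceeded MHCII+CD11c+ cells 3.03-fold (log2 1.60, SE 0.19, adjusted p = 3.2e-07) and MHCII+CD11c- cells 1.68-fold (0.75, SE 0.18, adjusted p = 0.0074). Between the MHCII+ subsets, *C5ar1* was lower in CD11c+ cells by 0.85 (adjusted p = 0.0089), a call lost without replicate 2 of MHCII+CD11c+ (-0.72, adjusted p = 0.077) or replicate 3 of MHCII+CD11c- without IC (-0.72, adjusted p = 0.082).

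**Figure D2:**
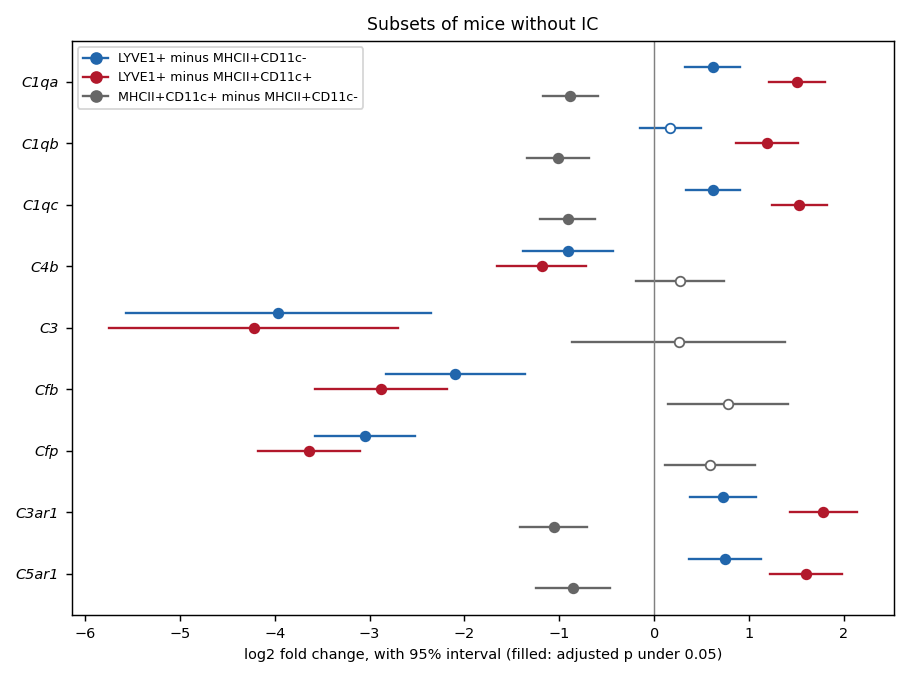
Log2 fold change between subsets of mice without IC (x axis, with 95% intervals) for each complement gene (y axis), with points filled where the adjusted p of edgeR was under 0.05. C1q and receptor genes lie right of 0 for LYVE1+ against MHCII+CD11c+ cells (1.19 to 1.78), and *C4b*, *C3*, *Cfb* and *Cfp* lie left of 0 (-1.18 to -4.22).

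The components that act downstream of C1q and in the alternative pathway ran the other way. Summed markers of neutrophils, B cells and dendritic cells were also lower in LYVE1+ than in MHCII+ libraries without IC. The part of such cells in these differences was not tested. *C3*, the protein on which all pathways converge, had 2, 2 and 10 reads in LYVE1+ libraries without IC, which was 1.35, 1.25 and 5.38 CPM. It measured 73.2, 31.8 and 30.6 CPM in MHCII+CD11c- and 68.8, 32.9 and 59.3 in MHCII+CD11c+ libraries. The LYVE1+ libraries lay below every MHCII+ library. The log2 difference from MHCII+CD11c+ was -4.22 (SE 0.74, adjusted p = 1.0e-04) and from MHCII+CD11c- -3.96 (SE 0.78, adjusted p = 0.0011). The MHCII+ subsets did not differ past the threshold (0.26, 95% interval -0.86 to 1.38).

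Properdin was likewise low in LYVE1+ cells. *Cfp* measured 43.8, 85.9 and 74.3 CPM in LYVE1+ libraries, 664, 567 and 465 in MHCII+CD11c- and 978, 730 and 843 in MHCII+CD11c+ libraries. It was 12.5-fold lower in LYVE1+ than in MHCII+CD11c+ cells (log2 -3.64, SE 0.26, adjusted p = 7.6e-11) and 8.27-fold lower than in MHCII+CD11c- cells (-3.05, SE 0.26, adjusted p = 4.2e-09). *Cfb*, the protease subunit of the alternative C3 convertase, measured 10.1, 26.3 and 14.0 CPM in LYVE1+ libraries, 89.5, 79.5 and 49.0 in MHCII+CD11c- and 119, 147 and 108 in MHCII+CD11c+ libraries. Its log2 differences were -2.88 from MHCII+CD11c+ (SE 0.34, adjusted p = 4.1e-07) and -2.10 from MHCII+CD11c- (SE 0.36, adjusted p = 2.2e-04). *Cfb* and *Cfp* were each higher in every MHCII+CD11c+ than in every MHCII+CD11c- library, but neither difference passed (0.78 and 0.59, adjusted p = 0.19 for both).

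*C4b* had the smallest contrast of this group. It measured 322, 382 and 337 CPM in LYVE1+ libraries, 660, 682 and 611 in MHCII+CD11c- and 607, 886 and 873 in MHCII+CD11c+ libraries, so that LYVE1+ was lower by 0.91 (SE 0.23, adjusted p = 0.0087) and 1.18 (SE 0.23, adjusted p = 3.1e-04) on the log2 scale. *C4b* has a near-identical copy, *C4a*, and how reads that match both were counted is not stated. *C4b* held 74.1% to 89.8% of the summed reads of both genes in a library, and *C4a* averaged 65.0, 111 and 154 CPM in the 3 subsets without IC, in the same order as *C4b*. *Cfb* lies next to *C2*, which had at most 8.55 CPM in any library without IC.

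At 8 h after IC, *C3* and the alternative pathway genes changed. Averaged over the 3 subsets, *C3* (log2 1.55, SE 0.40, 95% interval 0.74 to 2.37, adjusted p = 0.017) and *Cfb* (0.80, SE 0.19, adjusted p = 0.010) rose and *Cfp* fell (-0.72, SE 0.14, adjusted p = 0.0026). These were 2 higher and 1 lower of 9, where 6.21% of all genes tested passed. The Wald test of DESeq2 called 7, with *C1qa*, *C1qb*, *C1qc* and *C5ar1* also higher (adjusted p = 0.014, 0.018, 0.039 and 0.025). It called 855 of 17957 genes in all. Within single subsets few calls were made for any gene. In LYVE1+ macrophages none of the 9 passed with edgeR (0.464% of all genes did), although 2 had an unadjusted p under 0.05. The Wald test of DESeq2 called 0, against 155 of 17957 genes. In MHCII+CD11c- macrophages 1 of 9 passed (1.06% of all genes). In MHCII+CD11c+ macrophages none passed with edgeR (0.673% of all genes), although 5 had an unadjusted p under 0.05. DESeq2 called 2, against 147 of 17957 genes. The share of all genes with an unadjusted p under 0.05 was not taken, so the counts at that cut have no baseline.

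The call in MHCII+CD11c- macrophages was *Cfb*. It rose from 89.5, 79.5 and 49.0 CPM to 311, 113 and 140, with no overlap (log2 1.37, SE 0.32, adjusted p = 0.033). The call was lost when any of 3 libraries was left out. The adjusted p was 0.19 without replicate 1 with IC (log2 0.83), 0.13 without replicate 3 without IC (1.14) and 0.077 without replicate 2 without IC (1.44). It was also lost with 1 surrogate variable (1.22, adjusted p = 0.12), with only the libraries compared (1.38, adjusted p = 0.17) and without the 2 smallest libraries with IC (0.97, adjusted p = 0.22). In LYVE1+ cells *Cfb* went from 10.1, 26.3 and 14.0 to 29.9, 20.6 and 21.6 CPM (0.51, adjusted p = 0.79), and in MHCII+CD11c+ cells from 119, 147 and 108 to 170, 218 and 146 (0.52, adjusted p = 0.62).

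*C3* with IC measured 9.59, 2.11 and 7.20 CPM in LYVE1+ libraries, 214, 11.3 and 282 in MHCII+CD11c- libraries and 78.7, 251 and 125 in MHCII+CD11c+ libraries. The 11.3 CPM of MHCII+CD11c- replicate 2 came from 3 reads, in the smallest library. Its sum of 7 macrophage markers was 4002 CPM, against 6791 and 6588 in replicates 1 and 3 with IC. For 5 sorting markers it was 4850, against 7240 and 7290. The part of depth or cell content in its *C3* level was not tested. The log2 change in MHCII+CD11c- cells was 2.01 (SE 0.55, adjusted p = 0.071) and without that library 2.47 (adjusted p = 0.0028). In MHCII+CD11c+ cells all 3 libraries with IC lay above all 3 without, but the change of 1.51 (SE 0.50, adjusted p = 0.22) did not pass, while without MHCII+CD11c- replicate 2 with IC it did (1.52, adjusted p = 0.036). The average *C3* change over subsets lost its call without LYVE1+ replicate 1 with IC (1.41, adjusted p = 0.071).

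*Cfp* was lower with IC in each subset, at 29.3, 33.7 and 48.5 CPM in LYVE1+, 424, 211 and 315 in MHCII+CD11c- and 668, 715 and 450 in MHCII+CD11c+ libraries. The groups with and without IC did not overlap in either MHCII+ subset, and overlapped in LYVE1+ cells. Single-subset changes were -0.87 (adjusted p = 0.21), -0.82 (adjusted p = 0.097) and -0.48 (adjusted p = 0.51) on the log2 scale. With edgeR and the main filter only the averaged change passed. The change in MHCII+CD11c- cells passed with the Wald test of DESeq2, unfiltered, and when every library needed 10 counts or more. In LYVE1+ cells it passed unfiltered.

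**Figure D3:**
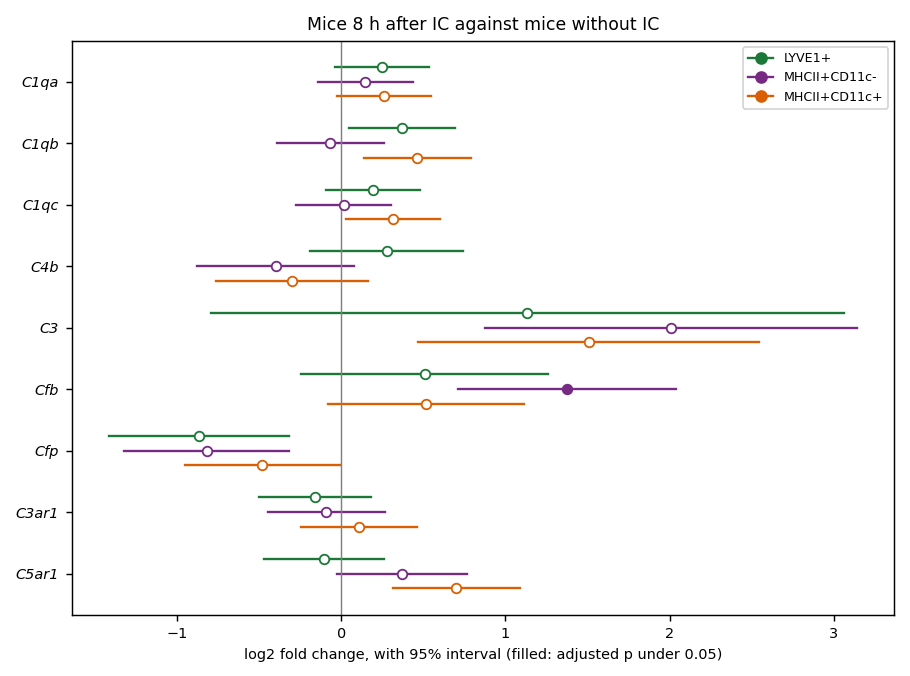
Log2 fold change of each complement gene 8 h after IC against no IC (x axis, with 95% intervals) in LYVE1+, MHCII+CD11c- and MHCII+CD11c+ macrophages, with the point filled where the adjusted p of edgeR was under 0.05. *Cfb* in MHCII+CD11c- cells, at 1.37, is the single filled point, and *Cfp* lies left of 0 in all 3 subsets (-0.87 to -0.48).

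*C5ar1* averaged 328 ± 22.4 CPM without and 304 ± 36.4 with IC in LYVE1+ cells, 195 ± 29.5 and 250 ± 50.4 in MHCII+CD11c- and 108 ± 21.7 and 175 ± 29.9 in MHCII+CD11c+ cells (SD, n = 3). In MHCII+CD11c+ cells all libraries with IC, at 154, 209 and 161 CPM, lay above those without, but the log2 change of 0.70 (95% interval 0.31 to 1.09, adjusted p = 0.099) did not pass. It did without MHCII+CD11c- replicate 2 with IC (0.70, adjusted p = 0.034). *C3ar1* had log2 changes of -0.16 in LYVE1+, -0.09 in MHCII+CD11c- and 0.10 in MHCII+CD11c+ cells, with intervals between -0.50 and 0.46.

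C1q levels with IC were 3780, 4035 and 3118 CPM for *C1qa* in LYVE1+ libraries, 2115, 2372 and 2149 in MHCII+CD11c- and 1194, 1456 and 1235 in MHCII+CD11c+ libraries. Averaged over subsets, *C1qa*, *C1qb* and *C1qc* were higher by 0.22, 0.26 and 0.17 on the log2 scale, with adjusted p of 0.11, 0.10 and 0.24 in edgeR and intervals that reached no further than 0.44. Without MHCII+CD11c- replicate 2 with IC, *C1qb* (0.32, adjusted p = 0.0033) and *C1qc* (0.21, adjusted p = 0.046) passed and *C1qa* did not (0.20, adjusted p = 0.066). The largest change in a subset was that of *C1qb* in MHCII+CD11c+ cells, from 981 ± 103 to 1352 ± 78.0 CPM (SD, n = 3), a log2 change of 0.46 (adjusted p = 0.24), which passed without MHCII+CD11c- replicate 2 with IC (0.47, adjusted p = 0.034). *C4b* changed by 0.28, -0.40 and -0.30 in LYVE1+, MHCII+CD11c- and MHCII+CD11c+ cells, none past the threshold.

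The median summed level of neutrophil markers was 14.2 CPM without and 26.9 with IC in LYVE1+, 781 and 1681 in MHCII+CD11c- and 201 and 1617 in MHCII+CD11c+ libraries, with overlapping ranges in the MHCII+CD11c- cells. Among the genes above, *C3*, *C5ar1* and *Cfp* are genes that neutrophils and monocytes can express. The sum of 9 monocyte markers was 716 to 964 CPM without IC and 899 to 1438 with IC in MHCII+CD11c- libraries. It was 864 to 962 and 1000 to 1012 in MHCII+CD11c+ libraries and lay at 445 to 623 in LYVE1+ libraries, where *Vcan* made up most of it. Of these markers, *Plac8* averaged 29.5 CPM without and 167 with IC in MHCII+CD11c- libraries and 12.8 and 72.0 in MHCII+CD11c+ libraries. In MHCII+CD11c- replicates 1, 2 and 3 with IC the neutrophil sum was 1681, 1536 and 4257 CPM, beside 214, 11.3 and 282 CPM of *C3* and 311, 113 and 140 of *Cfb*. In MHCII+CD11c+ replicates it was 1047, 1617 and 2360, beside 78.7, 251 and 125 CPM of *C3* and 170, 218 and 146 of *Cfb*. MHCII+CD11c- replicates without IC had neutrophil sums of 1882, 781 and 776, beside 73.2, 31.8 and 30.6 CPM of *C3*. MHCII+CD11c+ replicates without IC had sums of 715, 20.4 and 201, beside 68.8, 32.9 and 59.3 CPM of *C3*. *Cfb* without IC measured 89.5, 79.5 and 49.0 CPM in the former and 119, 147 and 108 in the latter. The fibroblast sum, mostly *Fn1*, in MHCII+CD11c- replicates 1, 2 and 3 with IC was 3723, 870 and 7016 CPM. *C4b* measured 591, 237 and 621 there. In MHCII+CD11c+ replicates with IC the fibroblast sums were 6069, 5472 and 7362, beside 603, 746 and 574 CPM of *C4b*. Without IC they were 5775, 2126 and 2810 in MHCII+CD11c-, beside 660, 682 and 611 CPM of *C4b*. MHCII+CD11c+ replicates without IC had 8532, 5787 and 5694, beside 607, 886 and 873. The sum of 8 dendritic cell markers was lower with IC, as *Cfp* was, with 155 to 170 CPM without and 62.8 to 119 with IC in MHCII+CD11c- libraries. It was 279 to 462 and 210 to 236 CPM in MHCII+CD11c+ and 8.76 to 12.9 and 2.64 to 3.95 CPM in LYVE1+ libraries, with no overlap in any subset. The part of these cells in the changes of *C3*, *C4b*, *Cfb*, *Cfp* and *C5ar1* with IC, or in their differences between subsets, was not tested.

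With IC, the order of the subsets was kept for most genes. LYVE1+ macrophages exceeded MHCII+CD11c+ cells for C1q and both receptors (log2 0.79 to 1.52) and lay below them for *C3*, *Cfb* and *Cfp* (-2.89 to -4.60), with 8 of 9 past the threshold against 19.7% of all genes. *C4b* lay at 522, 375 and 363 CPM in LYVE1+ and 603, 746 and 574 in MHCII+CD11c+ libraries with IC, a difference of -0.61 with an adjusted p of 0.060. Against MHCII+CD11c- cells 4 were higher (C1q genes and *C3ar1*) and 3 lower (*C3*, *Cfb*, *Cfp*), against 9.77% of all genes. Of these, *C1qb* (0.61, adjusted p = 0.014) lost its call without LYVE1+ replicate 1 (0.56, adjusted p = 0.063) or replicate 2 (0.60, adjusted p = 0.055) with IC, and *C3ar1* (0.66, adjusted p = 0.014) without LYVE1+ replicate 1 (0.62, adjusted p = 0.058) or MHCII+CD11c- replicate 1 (0.58, adjusted p = 0.066) with IC. Between the MHCII+ subsets, *C1qa*, *C1qc* and *C3ar1* were lower (-0.77, -0.61 and -0.86) and *Cfp* higher (0.93, adjusted p = 0.034) in CD11c+ cells, against 2.84% of all genes. The *Cfp* call was lost without any of 4 libraries with IC (log2 0.75 to 0.92, adjusted p = 0.094 to 0.18), replicates 1 and 2 of MHCII+CD11c+ and replicates 2 and 3 of MHCII+CD11c- cells, and that of *C1qc* without replicate 1 of MHCII+CD11c+ (-0.55, adjusted p = 0.093) or replicate 3 of MHCII+CD11c- (-0.54, adjusted p = 0.063).

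The IC response of a gene was not shown to differ between subsets. The interaction terms called none of the 9 genes for any pair, and almost none of all genes (0% for LYVE1+ against MHCII+CD11c-, 0.00948% for LYVE1+ against MHCII+CD11c+ and 0.00948% for MHCII+CD11c+ against MHCII+CD11c-). DESeq2 also called 0 of the 9, against 13, 12 and 1 of 17957 genes for these pairs in the same order. In each pair 1 of the 9 had an unadjusted p under 0.05 with edgeR, a cut at which no share of all genes was taken. The largest among those, for *C5ar1*, was a response lower in LYVE1+ than in MHCII+CD11c+ cells by 0.81 (95% interval -1.34 to -0.27, adjusted p = 0.998). For *Cfb* the response in MHCII+CD11c- cells exceeded that in MHCII+CD11c+ cells by a margin whose interval spans 0 (CD11c+ minus CD11c- -0.86, 95% interval -1.75 to 0.03).

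Across the 18 libraries the 9 genes formed the same 2 groups by the Pearson correlation of log2 CPM. C1q, *C3ar1* and *C5ar1* correlated with each other at 0.81 to 0.98, and *C3*, *C4b*, *Cfb* and *Cfp* at 0.63 to 0.89, with -0.90 to -0.45 between the groups. The 18 points are 6 groups of 3, so these values largely repeat the differences between subsets. The genes most like *C1qa* were *C1qc* (0.98), *Vsig4* (0.97), which encodes a receptor for C3 fragments, and *Cx3cr1* (0.97), which encodes a sorting marker of the LYVE1+ subset. *C1qc* was most like *Cx3cr1* (0.98), *C1qa* and *Vsig4*, and *C1qb* most like *C1qc* (0.95), *Lgmn* (0.94), a lysosomal protease, and *Fmnl3* (0.94). *Cfp* was most like *H2-DMa* (0.98), a class II loading chaperone, and the lectins *Mgl2* (0.98) and *Cd209f* (0.97). *C3* was most like *Limd2* (0.97), *Itgal* (0.93), an integrin of leukocytes, and *Hmgb2* (0.92), and *Klra2* (0.93) and *Fabp5* (0.93) were among the genes most like *Cfb*. *C4b* was most like *Mcmbp* (0.95), *Mkl1* (0.91) and *Slamf7* (0.90), *C3ar1* most like *Tgfbr1*, *Emp1* and *S1pr1* (0.97 each), and *C5ar1* most like *Vcan* (0.95), *Nupr1* (0.94) and *Clec5a* (0.94).

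**Figure D4:**
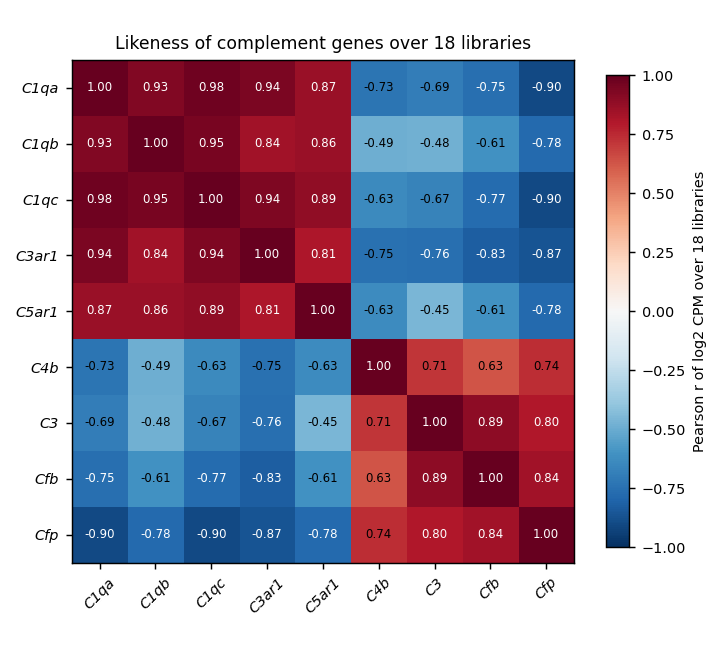
Pearson correlation of log2 CPM over 18 libraries for each pair of complement genes (both axes), on a colour scale from -1 to 1 with the value in each cell. C1q and receptor genes form a red block of 0.81 to 0.98, and *C4b*, *C3*, *Cfb* and *Cfp* a second of 0.63 to 0.89.

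The rest of the pathway was read from 49 further complement genes, of which 21 had enough reads to be tested. Without IC, 5 of the 21 were higher and 3 lower in LYVE1+ than in MHCII+CD11c- macrophages (11.4% of all genes passed), and 4 were higher and 3 lower than in MHCII+CD11c+ cells (21.8% of all genes). Between the MHCII+ subsets 1 was higher and 3 were lower in CD11c+ cells (3.49% of all genes). *Vsig4*, *Lair1* and *Lrp1* were among those with the pattern of C1q. *Vsig4* measured 1543 CPM on average in LYVE1+, 254 in MHCII+CD11c- and 49.7 in MHCII+CD11c+ cells (log2 LYVE1+ against MHCII+CD11c+ 4.95, SE 0.25, adjusted p = 1.0e-13). *Lair1*, an inhibitory collagen receptor that also binds C1q, averaged 276, 148 and 60.7 CPM (2.18, SE 0.22, adjusted p = 4.3e-08), and *Lrp1*, an endocytic receptor, 2761, 1526 and 1130 CPM (1.29, SE 0.25, adjusted p = 3.3e-04).

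Other genes of the pathway had opposite or low levels. *Cd93* without IC averaged 57.0 CPM in LYVE1+ and 265 in MHCII+CD11c- cells (log2 -2.21, SE 0.35, adjusted p = 9.1e-05). In MHCII+CD11c+ cells it averaged 73.8 CPM, and LYVE1+ cells did not differ from them past the threshold (-0.37, adjusted p = 0.54). *Cr2*, a B-cell complement receptor, had no reads in LYVE1+ libraries and averaged 12.5 CPM in MHCII+CD11c- libraries without IC, which also held the B-cell markers given above. The part of B cells in it was not tested. The proteases and later components were sparse, *C1ra* at 5.21 to 12.6 and *C2* at 2.48 to 7.70 CPM on group average. *Hc*, which encodes C5, had 8 reads in all 18 libraries, and *C9* and *Cfi* had none. Reads of 0 allow up to 11.3 CPM in the smallest library.

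With IC, 1 of the 21 passed in each MHCII+ subset, none in LYVE1+ cells, and 4 were higher in the average over subsets. Of all genes, 1.06% passed in MHCII+CD11c-, 0.673% in MHCII+CD11c+ and 0.464% in LYVE1+ cells and 6.21% in the average. In MHCII+CD11c+ cells *Vsig4* rose from 67.8, 46.7 and 34.7 to 102, 91.2 and 140 CPM (log2 1.17, SE 0.24, adjusted p = 0.015), with an averaged change of 0.78 (SE 0.13, adjusted p = 3.6e-04). *Calr*, a chaperone that on the cell surface is a C1q partner, rose by 0.51 on average (SE 0.09, adjusted p = 4.6e-04) and *Itgam*, a chain of complement receptor 3, by 0.49 (SE 0.11, adjusted p = 0.0072). *Itgax*, a chain of complement receptor 4, went from 2.33, 2.44 and 13.3 to 70.6, 33.9 and 31.0 CPM in MHCII+CD11c- libraries (2.75, SE 0.63, adjusted p = 0.026), but CD11c was used to sort these cells.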

How the data were processed

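The authors trimmed reads (Trim Galore, FastQC), used HISAT2 to align them to mm10 and featureCounts to assign them to genes, and deposited the raw counts by gene symbol. Versions, annotation, strand setting and handling of multiply matching reads are not given in the sources used here. The kit makes stranded total RNA libraries. From the deposited counts, edgeR 4.0.16 (R 4.3.3) gave TMM-scaled CPM and log2 CPM (prior count 2). A filter by filterByExpr, set to a count of 10 and a total of 15, left 10550 genes, and 13 contrasts were fitted over all 18 libraries and 6 groups with the quasi-likelihood test. The SE is the log2 fold change divided by the square root of F. The 95% intervals are approximate, with 1 t distribution at the mean degrees of freedom of all genes. Tests were run on simulated data first. Levels per kilobase use RefSeq-paired transcripts of GENCODE M21. Promoters are RefSeq's, of build GRCm38.p6. Named genes were the 9 members, pathway genes past the threshold, the 3 most correlated genes of each member, and markers; *C1ra*, *C2*, *C4a*, *Hc*, *C9* and *Cfi* were named after their values were seen. Members and lists were chosen with earlier results of these data known. Alternatives were DESeq2 1.42.0 (size factors and Wald test), other filters, other sets of libraries, blocks, and 1 surrogate variable of sva 3.50.0. A combined table repeated the counts and was not used. No source used here says that molecular identifiers entered the counts, so floors cover counting error only. A few genes that the naming rule selects are not reported here.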

Additional observations from a re-analysis of the deposited data

How the results depend on the processing

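Of the 45 combinations of gene and comparison that passed out of 117, 34 kept their call in every alternative that could be run, and all 45 kept their direction. The counts of genes called between subsets without IC (8, 9 and 5) and for the IC response between subsets (0) stayed within 1.5 times under every alternative. With IC, LYVE1+ against MHCII+CD11c- cells gave 4 members in place of 7 with 1 surrogate variable and 4 with only the libraries compared, and the MHCII+ subsets gave 0 in place of 4 with only the libraries compared. Of all genes, 435 of 10550 and 460 of 9049 passed in the former, in place of 1031 of 10550. In the latter 100 of 8043 passed, in place of 300 of 10550. For IC in LYVE1+ cells no filter gave 1 member in place of 0, with 160 of 17957 genes passing in place of 49 of 10550. In MHCII+CD11c- cells the count of 1 became 2 with the Wald test of DESeq2, 3 unfiltered, 2 when every library needed 10 counts or more, and 0 with only the libraries compared. Of all genes, 270 of 17957, 337 of 17957, 131 of 3798 and 19 of 8153 passed in these settings, in place of 112 of 10550. In MHCII+CD11c+ cells the 0 became 2 with the Wald test, 2 unfiltered and 1 when every library needed 10 counts or more. It became 2 with 1 surrogate variable and 2 with only the libraries compared. Of all genes, 147 of 17957, 250 of 17957, 62 of 3798, 85 of 10550 and 170 of 9371 passed in these settings. In the main setting 71 of 10550 did. With 1 surrogate variable and without the 2 smallest libraries, the count in MHCII+CD11c- cells stayed at 1 but the gene called was *C3* in place of *Cfb*. Averaged over subsets, the 3 members became 7 with the Wald test (*C1qa*, *C1qb*, *C1qc* and *C5ar1* added). Of all genes, 855 of 17957 passed there, in place of 655 of 10550. Leaving out 1 library at a time gave 0 to 2 members for IC in MHCII+CD11c- cells, 0 to 3 in MHCII+CD11c+ cells, 2 to 6 averaged over subsets and 2 to 4 for the MHCII+ subsets with IC. The highest counts came without MHCII+CD11c- replicate 2 with IC. Without it, 182, 138 and 853 of 10861 genes passed for IC in MHCII+CD11c-, in MHCII+CD11c+ and averaged over subsets. Without the 2 smallest libraries, the 1 left in its group was assumed to vary like the others. The causes were not tested. *C3* could not be fitted when every library needed 10 counts.

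Whether same-numbered libraries of 1 treatment share mice is not given in the sources used here. Deviations of same-numbered libraries correlated at -0.05 to 0.13 between subsets of 1 treatment, above 0 in 17 of 18 pairs but above 0.1 in 1, and at -0.03 to 0.04 between treatments of 1 subset. With the replicate number as a block, the members called stayed at 8, 9 and 5 between subsets without IC, at 0, 1 and 0 for IC within LYVE1+, MHCII+CD11c- and MHCII+CD11c+ cells, and at 3 averaged over subsets, with *Cfb* in MHCII+CD11c- cells at 1.39 (adjusted p = 0.017). With a block for each replicate number within a treatment, IC against no IC could not be compared, within a subset or averaged over subsets. Among the other comparisons this block changed the count only for LYVE1+ against MHCII+CD11c+ cells with IC, from 8 to 9. Of all genes, 2109 of 10550 passed there, in place of 2081.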
